A study of Mus musculus with 36 samples.

Results

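The 34 genes described here encode the proteins that carry a signal from the T cell receptor to the first branching points inside the CD4+ T cell, together with the proteins that damp it. Chromatin accessibility around them was measured by ATAC-seq, in which the Tn5 transposase cuts open DNA and the cut fragments are sequenced. A peak (an interval of open chromatin in the deposited consensus list) was given to a gene when its midpoint lay nearer to a start site of a protein-coding transcript of that gene than to the start of any other coding gene. Of 71509 peaks, 585 fell to the 34 genes. A peak was called a promoter peak when its midpoint lay within 1 kb of the start, which held for 43 of the 585, and distal otherwise, which held for the other 542. The rule used positions and no accessibility values.

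When a peptide-bearing MHC molecule binds the receptor, the kinase Lck phosphorylates the receptor's tails and the docked kinase Zap70, and Fyn works beside Lck. Zap70 then phosphorylates the adaptors Lat and Lcp2 (SLP-76), on which Grb2, Grap2 (Gads), Nck1 and other scaffolds assemble the enzymes that spread the signal: Plcg1 splits a membrane lipid, Rasgrp1 and Sos1 load Ras, Vav1 acts on the cytoskeleton, and Prkcq with Bcl10 and Malt1 leads to NF-κB. Csk, the phosphatases Ptpn22, Ptpn6 and Ptpn2, the lipid kinases Dgka and Dgkz, the ubiquitin ligase Cblb, Ubash3a, Ubash3b, Sla and Sla2 oppose these steps, and Cd5, Cd6, Cd2 and the phosphatase Ptprc (CD45) tune the signal from the cell surface. For the counts, the genes were ordered as kinases (6 genes, Csk among them, 139 peaks), adaptors (7 genes, 89 peaks), effectors (7 genes, 107 peaks), inhibitors (10 genes, 166 peaks) and surface molecules (4 genes, 84 peaks).

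The series held 36 libraries of splenic mouse CD4 T cells in 12 groups of 3, from 2 lines that lack an HP1 protein, a reader of the heterochromatin mark H3K9 methylation. HP1α knockout (KO) mice carried a floxed Hp1a gene deleted in the whole animal with a CMV-cre transgene, and their wild-type (WT) controls were Hp1a+/+ littermates. HP1γ KO mice carried floxed Hp1g deleted by a Cd4-cre transgene, which is active in thymocytes once they express CD4, and their WT controls were littermates with both alleles floxed and no Cre. Both lines were on a mixed 129/Sv and C57BL/6 background, and the mice were young adults. In each line and genotype, 3 cell states were profiled. Naive cells (CD62L+ and CD44 negative or low) were enriched from spleen with a magnetic negative-selection kit, before any transfer. Tconv cells were donor-specific TCR Vβ6+ cells purified by flow cytometry, a different procedure, 3 weeks after naive CD4 T cells had been given to irradiated B6 hosts together with B6 and semi-allogeneic B6D2F1 bone marrow, a graft that these cells reject. TconvTreg cells had gone through the same transfer with ex vivo expanded WT regulatory T cells (Treg) added. The labels do not say whether the 3 libraries of a group came from separate animals, so the p-values below measure the spread between libraries, which may be technical.

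Reads in peaks ranged from 1486053 to 96806542 a library, and between 0.918% and 1.07% of them lay in the 585 peaks. The 6 shallowest libraries were all of the HP1α line, 5 of them TconvTreg and the other WT Tconv replicate 3 with 6202786 reads. The study had left out 1 of the 3 WT and 2 of the 3 KO libraries there for poor quality, and the tests below leave out the same ones, so that HP1α TconvTreg comparisons rest on 2 WT libraries and 1 KO library. A single library has no spread of its own: in every comparison with HP1α KO TconvTreg, the SE and p assume that it varies like the other groups of the model. Of the 2 WT libraries kept, replicate 2 held 1486053 reads and had no read in 71 of the 585 peaks. Among start-site peaks of marker genes, the sum for the T cell genes Cd3e, Cd3g, Thy1 and Cd28 was 26.2 to 39.9 CPM (reads scaled to the library's total in peaks) per kb in the HP1α WT TconvTreg libraries and 45.1 to 66.1 in HP1α WT Tconv, and the B cell gene Pax5 stood at 13.1 to 16.4 against 4.45 to 6.29. No start-site peak was found for Ms4a1, Cd79a, Cd8a, Csf1r, Lyz2, Ncr1 or Klrb1c. An intragenic Cd4 peak stood at 68.9 CPM per kb in HP1γ KO and 10.1 in HP1γ WT naive cells, and the KO carries the Cd4-cre transgene. The promoter peak of Cbx3, the gene of HP1γ, stood at 40.1 CPM per kb in WT and 40.5 in KO naive cells, and that of Cbx5, the gene of HP1α, at 15.1 and 15.2. Which part of either gene was deleted is not given in the sources used here, so these levels check nothing about the deletion.

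The 6 sequences below are the central 300 bases of the distal peaks on which the results turn, chosen after their values were seen. They were read from the plus strand of GRCm39. Capitals mark 7 short motifs searched on both strands: CCGGAAG (ETS), TGTGGT (RUNX), TGANTCA (AP-1), TGGAAA (NFAT), CTTTGAA (TCF/LEF), CAGGTG (E-box) and GGGCGG (GC box). A match is a description of letters, not of a bound factor.
Lcp2, distal peak 4, chr11:33986376-33986675, opened from naive cells to Tconv: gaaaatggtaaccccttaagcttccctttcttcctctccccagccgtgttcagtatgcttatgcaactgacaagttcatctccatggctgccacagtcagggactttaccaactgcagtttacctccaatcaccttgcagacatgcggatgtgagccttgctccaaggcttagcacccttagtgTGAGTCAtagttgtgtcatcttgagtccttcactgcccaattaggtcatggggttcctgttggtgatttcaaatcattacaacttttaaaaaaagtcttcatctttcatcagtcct
Cblb, distal peak 27, chr16:51829766-51830065, closed from naive cells to Tconv: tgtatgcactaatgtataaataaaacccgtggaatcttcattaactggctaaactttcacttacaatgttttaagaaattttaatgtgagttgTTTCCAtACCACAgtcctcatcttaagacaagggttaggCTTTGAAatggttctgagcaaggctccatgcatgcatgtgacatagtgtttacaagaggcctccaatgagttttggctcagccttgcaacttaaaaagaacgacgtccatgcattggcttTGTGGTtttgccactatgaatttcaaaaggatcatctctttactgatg
Grap2, distal peak 6, chr15:80495136-80495435, lower in HP1α WT TconvTreg than in Tconv: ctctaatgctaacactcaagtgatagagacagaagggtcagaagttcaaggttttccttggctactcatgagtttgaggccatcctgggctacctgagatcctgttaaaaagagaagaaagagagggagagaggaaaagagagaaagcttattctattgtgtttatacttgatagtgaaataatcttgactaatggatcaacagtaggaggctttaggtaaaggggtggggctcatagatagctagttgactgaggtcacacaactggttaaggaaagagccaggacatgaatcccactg
Grap2, distal peak 9, chr15:80501951-80502250, lower in HP1α WT TconvTreg than in Tconv: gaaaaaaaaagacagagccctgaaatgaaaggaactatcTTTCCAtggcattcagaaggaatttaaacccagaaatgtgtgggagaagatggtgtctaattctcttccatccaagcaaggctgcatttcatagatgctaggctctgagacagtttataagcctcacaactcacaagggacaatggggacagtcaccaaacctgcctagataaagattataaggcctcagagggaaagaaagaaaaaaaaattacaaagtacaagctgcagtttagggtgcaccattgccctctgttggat
Prkcq, distal peak 39, chr2:11273336-11273635, higher in HP1γ KO than WT TconvTreg: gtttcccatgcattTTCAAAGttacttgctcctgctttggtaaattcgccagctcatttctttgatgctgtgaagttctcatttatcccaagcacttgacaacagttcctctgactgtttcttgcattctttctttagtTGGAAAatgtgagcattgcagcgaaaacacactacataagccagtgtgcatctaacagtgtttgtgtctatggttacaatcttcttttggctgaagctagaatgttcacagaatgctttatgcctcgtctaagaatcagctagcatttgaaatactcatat
Prkcq, distal peak 5, chr2:11051131-11051430, lower in HP1γ KO than WT TconvTreg: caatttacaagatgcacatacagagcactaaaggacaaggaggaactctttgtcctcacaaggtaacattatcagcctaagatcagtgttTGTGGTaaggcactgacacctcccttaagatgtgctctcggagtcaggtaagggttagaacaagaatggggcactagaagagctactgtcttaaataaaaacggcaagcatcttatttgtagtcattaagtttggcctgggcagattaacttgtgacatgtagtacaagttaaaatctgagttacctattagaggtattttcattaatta

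Distal peaks of a gene are numbered here by their signed distance from the nearest of its start sites, the farthest upstream first. The central 300 bases, the window searched in every peak, held 1 AP-1 match at Lcp2 peak 4, 2 RUNX matches and 1 match each for NFAT and TCF/LEF at Cblb peak 27, 1 NFAT match at Grap2 peak 9, 1 NFAT and 1 TCF/LEF match at Prkcq peak 39 and 1 RUNX match at Prkcq peak 5. Grap2 peak 6 held none of the 7 there, and 9 RUNX matches over its whole 2750 bp. Over all peaks, 30.0% held a RUNX match in the central window, 23.7% an NFAT, 13.0% an AP-1 and 7.93% a TCF/LEF match.

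The peaks were spread unevenly over the genes. Cblb had the most with 54, followed by Prkcq with 48, Fyn and Ubash3b with 47 each, Rasgrp1 with 38 and Ptprc with 37, and Bcl10 had the fewest with 3. Most lay in the genes themselves or in nothing else that codes for protein: 334 of the 585 were inside their own gene, 220 were inside no coding gene and 31 were only inside another one. Of the distal peaks 69.0% were intronic and 19.9% intergenic, beside 62.8% and 23.7% of all distal peaks. They were wide, with a median of 970 bp beside 620 bp over all distal peaks, and lay at a median of 15684.5 bp from the start. The nearest-start rule reaches far where neighbours are far: peaks given to Cblb went out to 718.042 kb upstream and those given to Ptprc to 518.095 kb downstream. When start sites of every gene type were allowed to compete, 297 of the 585 peaks stayed with their gene.

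Every member had a peak at its start. For 26 members this was a promoter peak, and for Lcp2, Grap2, Sh2d2a, Sla2, Cd5, Cd6, Cd2 and Ptprc it was a wide peak over the start whose midpoint lay beyond 1 kb and which counts as distal by the rule (these 8 were looked up after the values were seen). Per kb of peak, in HP1γ WT naive cells, the highest start-site level was at Ptpn2 (51.8 ± 1.85 CPM per kb), with Bcl10 at 43.1 ± 2.07, Malt1 at 37.5 ± 0.889, Nck1 at 36.3 ± 1.09 and Fyn at 34.3 ± 1.86 (SD, n = 3). Ptpn2 and Bcl10 stood apart from each other and from the rest by more than these SDs, and Malt1 with Nck1 and Nck1 with Fyn did not. The lowest were Sla (5.65 ± 0.159), Cblb (4.81 ± 0.355), Plcg1 (3.40 ± 0.351) and Dgka (2.16 ± 0.205). This order depends on peak width as well as on signal, and the start-site peaks of Sla and Cblb are wide. Of the 6 kinase genes, Fyn was among the highest and the other 5 were in between, with Lck at 19.7 ± 0.466, Txk at 19.2 ± 1.08, Csk at 13.3 ± 0.826, Zap70 at 12.3 ± 0.250 and Prkcq at 8.71 ± 0.192.

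Of the comparisons made here, those with the most called peaks were between naive cells and the Tconv recovered from grafted hosts, the comparison that asks what the response to the graft does to chromatin. Calls required an adjusted p below 0.05 in edgeR's quasi-likelihood test (Benjamini-Hochberg over all peaks) with a change of more than 1 on the log2 scale either way. In HP1γ WT cells, 145 of the 585 were higher and 114 lower after transfer, 44.3% in all, beside 47.1% of all peaks. In HP1α WT cells, 135 were higher and 80 lower, 36.8% beside 39.1%. The share of peaks called at these genes was thus near that of the whole genome. Markers of other cells moved between the same states. The CD8 T cell gene Cd8b1 (1 of 2 CD8 genes with a start-site peak) ranged over 19.2 to 21.97 CPM per kb in the HP1γ WT naive libraries and 1.70 to 2.86 in Tconv, and over 21.1 to 23.8 and 2.33 to 6.23 in HP1α WT. Klrk1, a receptor gene of NK cells and some T cells, stood at 0.154 to 0.3002 and 7.43 to 14.2 in HP1γ WT and at 0.380 to 0.442 and 6.03 to 20.02 in HP1α WT. Their part in the result was not tested.

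The balance of calls is given here by role, with no test between roles. Of the 89 adaptor peaks, 39 were called higher and 3 lower in HP1γ WT, and 33 and 3 in HP1α WT, where of all peaks 25.2% were higher and 21.9% lower in HP1γ WT and 25.6% and 13.4% in HP1α WT. The median log2 fold change of the adaptor peaks was 0.80 and 0.62 in the 2 lines, beside 0.08 and -0.01 over all peaks. Themis held 12 of the 39 and 11 of the 33, and the medians of Grap2 (0.11 and 0.16) and Nck1 (0.03 and -0.07) were near that of all peaks. The inhibitors went both ways, with 35 higher and 42 lower of 166 in HP1γ WT and 27 and 33 in HP1α WT. Most of the lower ones were at 2 genes: Cblb had 6 higher and 21 lower in HP1γ WT and 7 and 12 in HP1α WT. Ubash3b had 14 and 14, and 8 and 16. The kinases had 33 higher and 34 lower of 139 in HP1γ WT and 39 and 22 in HP1α WT, the effectors 21 and 20 of 107 and 20 and 13, and the surface molecules 17 and 15 of 84 and 16 and 9. Scaling by library size alone shifted the median of all peaks in HP1α WT by 0.25 and the calls at the 585 peaks there to 157 higher and 45 lower, with the inhibitors at 34 higher and 19 lower, while the adaptors stayed mostly higher (39 and 0).

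**Figure D1:**
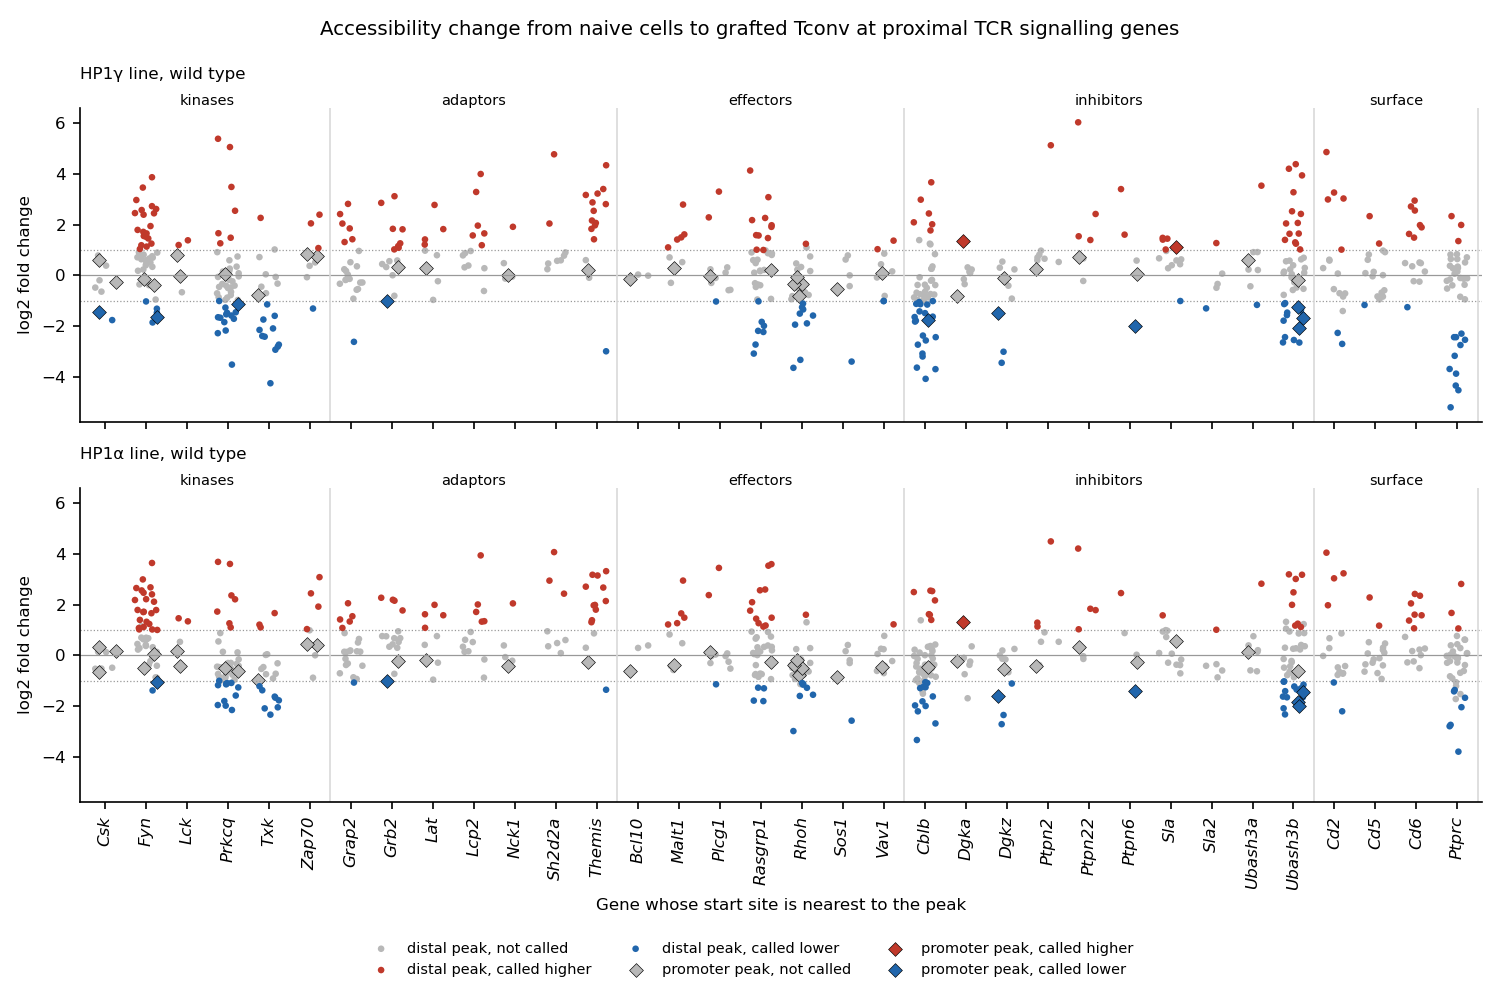
Log2 fold change from naive cells to Tconv (vertical axis) of the 585 peaks in WT cells of the HP1γ line (top) and the HP1α line (bottom), by the gene whose start is nearest. Each dot is a distal peak and each diamond a promoter peak, red when called higher and blue when called lower, the dotted lines stand at a log2 fold change of -1 and 1, and the sideways spread of points within a gene is arbitrary. Among the called points, the columns of the adaptors hold more red than blue ones (39 higher and 3 lower of 89 in the HP1γ line, 33 and 3 in the HP1α line), and Cblb more blue than red ones (21 lower and 6 higher of 54, 12 and 7).

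The 2 lines shared no library, and their WT comparisons can be set side by side. Of the 135 peaks called higher in HP1α WT, 115 (85.2%) were also called higher in HP1γ WT, which is 79.3% of the 145 called there. Of the 80 called lower, 68 (85.0%) were also called lower in HP1γ WT, 59.6% of its 114. Over all peaks these shares were 87.0% and 88.5% for the higher and 92.0% and 56.4% for the lower calls, with 15957 of the 71509 peaks higher and 8825 lower in both. None of the 585 was called in opposite directions. Fyn, the Src-family kinase, had 17 peaks called higher in both lines and 2 lower, Themis, an adaptor of thymocyte selection, 11 and 1, Rasgrp1 9 and 4, Cd6 7 and 0, Lcp2 5 and 0 and Malt1 5 and 0. Peaks called lower in both lines were found at Ubash3b (12 lower and 8 higher), Prkcq (10 and 5), Cblb (8 and 4), the Tec kinase Txk (8 and 1), Rhoh, a small GTPase without GTP hydrolysis that helps to recruit Zap70 (7 and 1), and Ptprc (7 and 3).

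The gain with the smallest p in HP1γ WT was in an intron of Ptpn2, a phosphatase that dephosphorylates Lck and JAK kinases. Peak 7 of Ptpn2 (chr18:67821251-67822140) was at -1.52, -1.71 and -1.63 log2 CPM in the 3 HP1γ WT naive libraries and at 3.51, 3.48 and 3.06 in HP1γ WT Tconv. The groups were far apart. The log2 fold change was 5.14 (SE 0.26, adjusted p = 5.78e-11 in edgeR's quasi-likelihood test), or 35.3-fold, and it was 4.50 in HP1α WT.

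Lcp2, whose product SLP-76 holds the signaling complex together, gained a peak upstream of its nearest start. Peak 4 (chr11:33985941-33987110, 10.394 kb upstream, in an intron of the neighbouring gene 4930469K13Rik) had 1.13, 0.61 and 0.86 log2 CPM in HP1γ WT naive and 4.73, 5.001 and 4.84 in HP1γ WT Tconv. In the HP1α line, the 3 naive WT libraries stood at 0.35, 0.40 and 0.42 and the 3 Tconv libraries at 4.64, 4.09 and 4.19. All 6 Tconv libraries were above all 6 naive ones, with log2 fold changes of 4.01 (SE 0.23, edgeR adjusted p = 2.01e-10) and 3.95 (SE 0.30, edgeR adjusted p = 1.99e-08). A pair of intronic Fyn peaks was also among the 4 smallest p-values, peak 9 (chr10:39354561-39357980) with log2 fold changes of 2.98 and 2.66 and peak 36 (chr10:39308161-39313340) with 2.74 and 2.41 in the HP1γ and the HP1α WT cells.

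Among the losses, the inhibitor Cblb stood first in HP1γ WT. Its peak 27, an intergenic interval 21.672 kb upstream of the start (chr16:51829371-51830460), went from 4.20, 4.27 and 4.15 log2 CPM in the naive libraries to 0.73, 0.42 and 0.44 in Tconv, a log2 fold change of -3.70 (SE 0.22, edgeR adjusted p = 3.01e-10). In HP1α WT it went from 4.45, 4.22 and 4.09 to 1.23, 1.69 and 2.10. The neighbouring peak 26 (chr16:51826921-51828210) led the losses in HP1α WT with -3.34 (SE 0.24). Over the 54 Cblb peaks, 21 were called lower and 6 higher in HP1γ WT, with a median of -0.82.

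The other leading losses were at Ubash3b, Rhoh and Dgkz. Peak 15 of Ubash3b, a phosphatase of Zap70 (chr9:41092471-41094150), changed by -2.44 in HP1γ WT and -2.33 in HP1α WT. Peak 23 of Rhoh (chr5:66061501-66062590) stood at 4.32, 4.49 and 4.43 log2 CPM in HP1γ WT naive and at 1.25, 0.32 and 0.62 in Tconv. Peak 6 of Dgkz, which removes the diacylglycerol that activates Rasgrp1 and Prkcq (chr2:91802071-91803420), stood at 4.45, 4.53 and 4.49 and at 0.52, 1.13 and 1.42. In HP1α WT, peak 33 of Ptprc (-2.04) and peak 42 of Prkcq (-1.98) took their places among the 4 smallest p-values.

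Several of these peaks also led in KO cells. In HP1γ KO, 138 peaks were called higher and 108 lower from naive cells to Tconv, 42.1% beside 42.3% of all peaks (22.4% higher and 19.9% lower), and in HP1α KO 110 and 98, 35.6% beside 39.5% (23.2% and 16.3%). Scaling by library size alone shifted the median of all peaks in HP1α KO by 0.17 and gave 130 higher and 67 lower. Lcp2 peak 4 changed by 3.92 and 4.08, Ptpn2 peak 7 by 4.28 and 4.52 and Fyn peak 9 by 3.34 and 2.73 in HP1γ KO and HP1α KO. The 4 smallest p-values of the losses were those of Ubash3b peak 15 (-2.30), Dgkz peak 6 (-3.15), Ptprc peak 33 (-2.30) and Prkcq peak 42 (-1.96) in HP1γ KO, and of Ptprc peak 33 (-2.20), Cblb peak 26 (-2.95), Ubash3b peak 15 (-2.05) and Rasgrp1 peak 12 (-1.99) in HP1α KO. The change from naive cells to Tconv was not called different between KO and WT at any of the 585 peaks in either line (interaction term, edgeR's quasi-likelihood test, with 47 peaks at an unadjusted p under 0.05 in the HP1γ line and 3 in the HP1α line). DESeq2 called 2 of them in the HP1γ line, and edgeR 0.0196% of all peaks there and 0% in the HP1α line.

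The 43 promoter peaks were mostly lower where called, unlike the start-site peaks, 1 for each of the 34 genes. Of these 34, 2 were called higher and 1 lower in HP1γ WT (median log2 fold change 0.23). In HP1α WT 1 was called higher and 0 lower (median -0.27). Most promoter peaks called lower were thus not the main one of their gene. In HP1γ WT, 2 of the 43 promoter peaks were called higher in Tconv and 10 lower, 27.9% beside 18.9% of all promoter peaks (10% higher and 8.87% lower), and in HP1α WT 1 and 7, 18.6% beside 15.7% (9.73% and 5.97%). The start-site peak of Cblb went from 4.94, 4.95 and 4.76 log2 CPM in HP1γ WT naive cells to 3.15, 3.20 and 2.99 in Tconv, a log2 fold change of -1.77 (SE 0.23, edgeR adjusted p = 2.59e-06). It was not called in HP1α WT, where the naive libraries stood at 5.20, 3.55 and 3.65 and the Tconv libraries at 2.87, 4.22 and 4.31, so that the groups overlapped (log2 fold change -0.47, edgeR adjusted p = 0.356). The start-site peak of Dgka, the diacylglycerol kinase, was low and rose in both lines, from -0.39, -0.65 and -0.43 to 0.55, 0.91 and 0.96 in HP1γ WT (log2 fold change 1.34, SE 0.27, edgeR adjusted p = 0.000246) and by 1.33 in HP1α WT (SE 0.43, edgeR adjusted p = 0.0167). Sla, an adaptor that targets the receptor for degradation, had a start-site peak that rose in HP1γ WT by 1.12 (SE 0.18, edgeR adjusted p = 2.53e-05) and was not called in HP1α WT (0.55, edgeR adjusted p = 0.00994). The start-site peak of Zap70 passed the p threshold but not the fold limit in both, with 0.85 in HP1γ WT (SE 0.10, edgeR adjusted p = 5.67e-07) and 0.46 in HP1α WT (edgeR adjusted p = 0.00727), and that of Txk reached -0.99 in HP1α WT (SE 0.14, edgeR adjusted p = 2.25e-05).

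**Figure D2:**
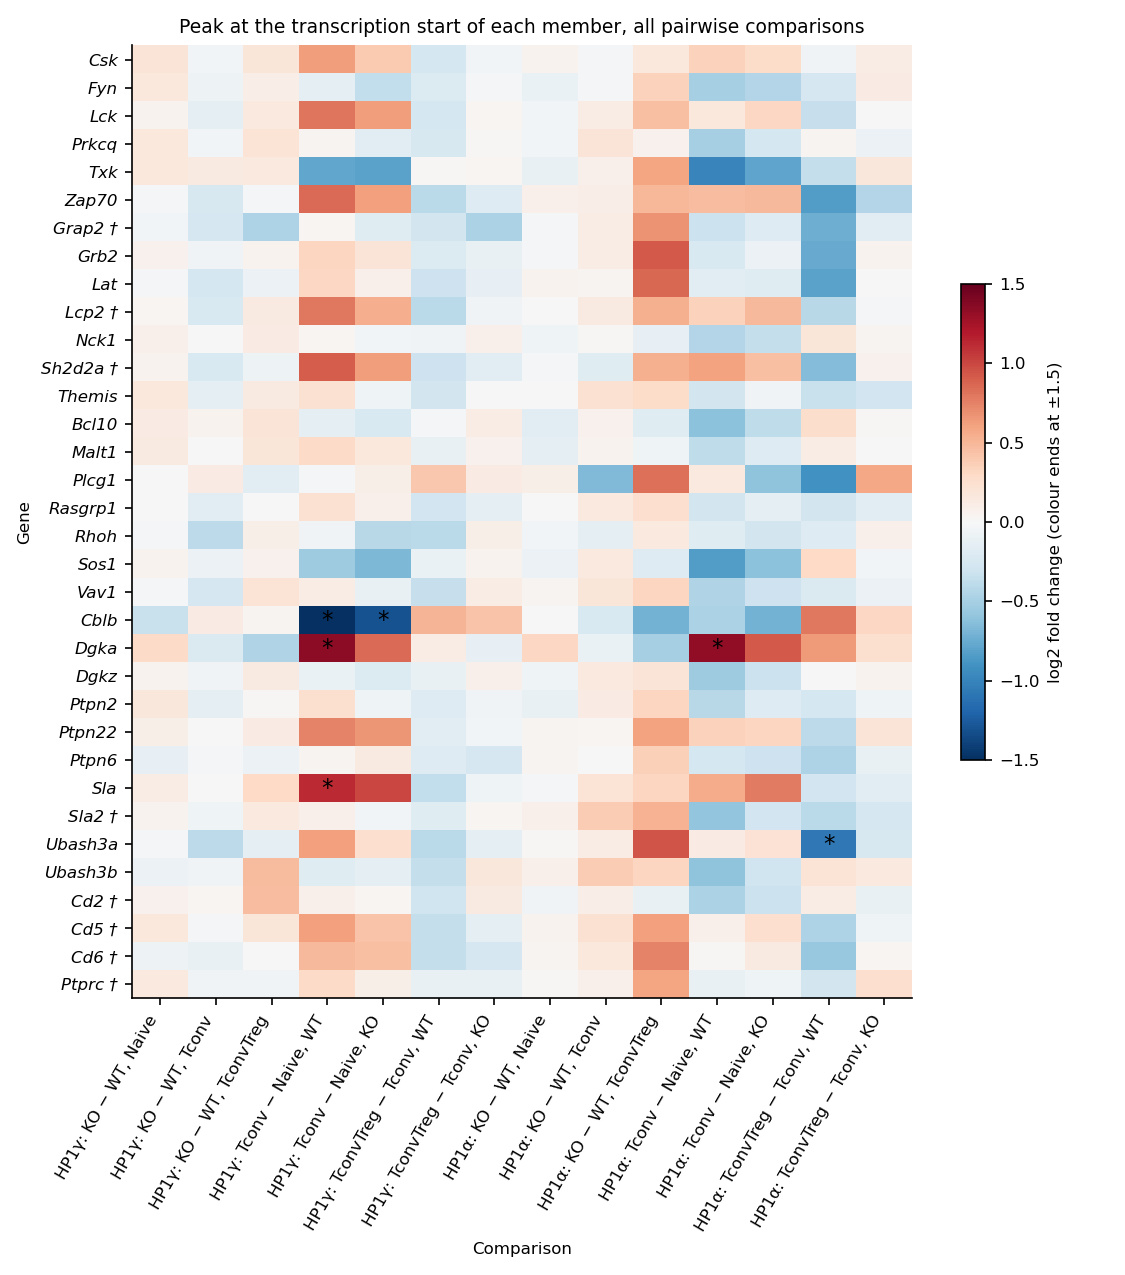
Log2 fold change (colour, ending at -1.5 and 1.5) of the peak at the start site of each of the 34 genes (rows) in the pairwise comparisons (columns). A star marks a called change and a dagger a gene whose start lies in a wide peak with a midpoint beyond 1 kb, and the stars stand in columns of Tconv against naive cells (Cblb, Dgka and Sla in HP1γ WT, Cblb in HP1γ KO, Dgka in HP1α WT) and of TconvTreg against Tconv (Ubash3a in HP1α WT), with none in a KO against WT column.

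Adding Treg to the transfer gave 2 called peaks in the HP1γ line's WT cells and 54 in the HP1α line's. A direct test called a different effect between the lines at 5 of the 585 peaks, and at 0 with the edgeR 4 method or with only the groups compared. The TconvTreg against Tconv comparison asks what a suppressive environment does to the responding cells. The paper reports that, at the cell ratio of the HP1γ experiment, Treg did not effectively repress the WT response. For HP1α-line WT cells it reports genes whose expression Treg strongly inhibited. The counts of the 2 lines may thus come from unlike degrees of suppression, which was not tested here. In HP1γ WT, 2 peaks were called higher in TconvTreg than in Tconv and none lower, beside 0.959% of all peaks, 0.901% higher and 0.0587% lower (119 of the 585 had an unadjusted p under 0.05 in edgeR, and DESeq2 called 10). Cblb peak 27, which had closed from naive cells to Tconv, stood at 1.87, 1.44 and 1.99 log2 CPM in TconvTreg, above the 3 Tconv libraries (log2 fold change 1.26, SE 0.22, edgeR adjusted p = 0.0174). Txk peak 18 in an intron (chr5:72877091-72878680) went from 0.65, 0.70 and 0.97 to 1.35, 1.86 and 2.22 (log2 fold change 1.07, SE 0.23, edgeR adjusted p = 0.0331). With the replicate number as a block, which the pairing check allows here, 7 peaks were called, and without Tconv replicate 2 or TconvTreg replicate 3 none was. None was called either with block and log2 depth, with log2 depth alone, with the edgeR 4 method or with only the groups compared.

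In HP1α WT, 20 peaks were called higher and 34 lower in TconvTreg than in Tconv, 9.23% beside 7.5% of all peaks, with 3.95% higher and 3.55% lower. The adaptors had 17 of 89 peaks lower and 1 higher, with a median log2 fold change of -0.65 beside 0.02 over all peaks. The inhibitors had 12 higher and 4 lower of 166, but 11 of the 12 belonged to Cblb and Ubash3b, and 7 of the 10 inhibitor genes had a median below 0. The other 3 were Cblb (0.72), Ubash3b (0.41) and Dgkz (0.22). Of the 34 lower peaks, 12 belonged to the adaptor Grap2, and of the 20 higher ones 6 belonged to Cblb and 5 to Ubash3b. The HP1α WT TconvTreg libraries are those with the higher Pax5 and lower T cell marker levels given above, and the part of these differences in the result was not tested. In bulk cells, fewer cells with an open site and less opening per cell cannot be told apart. With loess offsets in place of TMM scaling the split was 28 higher and 26 lower, so that the balance of directions over the 585 depends on the scaling, while 9 Grap2 peaks were still lower and none higher. The count was 32 without WT Tconv replicate 1 and 0 with both the replicate block and log2 depth in the model.

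Grap2 encodes Gads, the adaptor that links SLP-76 to Lat. All but 1 of its 22 peaks had a log2 fold change below 0 in HP1α WT TconvTreg against Tconv, with a median of -1.38. Peak 9 (chr15:80501421-80502780, intronic) stood at 3.51, 3.17 and 3.31 log2 CPM in the HP1α WT Tconv libraries and at 1.36 and 0.80 in the 2 TconvTreg libraries tested, from 31 and 3 reads, with the library left out at 0.95 from 8 reads. The 3 TconvTreg libraries lay below all others of the series. The log2 fold change was -2.10 (SE 0.30, edgeR adjusted p = 0.000735), or 4.28-fold lower.

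Peak 6 of Grap2 (chr15:80493911-80496660, intronic) went from 4.87, 4.70 and 4.71 to 3.32 and 2.19 log2 CPM, from 122 and 8 reads, with 2.83 in the library left out (log2 fold change -1.68, SE 0.24, edgeR adjusted p = 0.00087). Peak 4 (chr15:80491121-80492740) went from 3.57, 3.57 and 3.33 to 1.76 and 1.78, with 0.95 in the library left out (-1.74, SE 0.25, edgeR adjusted p = 0.00092). These groups did not overlap. The other 9 Grap2 peaks called lower ranged from -1.73 at peak 16 to -1.004 at peak 1, and the 12 lay between 80473201 and 80524750 on chr15. Peak 7 differed from its neighbours in that the TconvTreg libraries were far apart, with 0.52 and 1.78 in those tested and 2.51 in the library left out, beside 2.40, 2.59 and 2.71 in Tconv. Of the 4 smallest p-values among the lower peaks, 3 were those of Grap2 peaks 9, 6 and 4 and the other was that of Rasgrp1 peak 19 (chr2:117228161-117230840), which went from 5.24, 5.06 and 5.24 to 3.57 and 3.64, with 3.56 in the library left out (-1.58, SE 0.25, edgeR adjusted p = 0.00144).

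The start-site peak of Ubash3a, a suppressor of receptor signaling found mainly in lymphocytes, was the promoter peak called lower. It stood at 7.22, 7.05 and 6.46 log2 CPM in HP1α WT Tconv and at 5.99 and 5.68 in TconvTreg, with 5.72 in the library left out (-1.07, SE 0.22, edgeR adjusted p = 0.00574). Among the higher peaks, Cblb peak 23 (chr16:51707431-51708410, intergenic) led with a change from -0.54, 0.64 and 0.90 to 3.89 and 2.77 log2 CPM, with 3.44 in the library left out (3.26, SE 0.53, edgeR adjusted p = 0.00172). Ptprc peak 33, which had closed from naive cells to Tconv, was higher by 1.03 (SE 0.17, edgeR adjusted p = 0.00187), Prkcq peak 26 by 1.71 (SE 0.33, edgeR adjusted p = 0.00416) and Cblb peak 53 by 1.24 (SE 0.25, edgeR adjusted p = 0.00622).

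The same comparison was made in KO cells. In HP1α KO, no peak of the 585 and 0% of all peaks was called between TconvTreg and Tconv (1 TconvTreg library, 29 of the 585 at an unadjusted p under 0.05 in edgeR, 3 called by DESeq2). Of the 22 Grap2 peaks 21 were below 0 there, with a median of -0.37 and 3 at an unadjusted p under 0.05, and peaks 9 and 6 had log2 fold changes of -0.20 and -0.26. In HP1γ KO, 7 were called higher and 11 lower, 3.08% beside 4.69% of all peaks, with 3.08% higher and 1.62% lower. All 22 Grap2 peaks were below 0 there, with a median of -0.69, and 1 was called, peak 7 (-1.07, SE 0.21, edgeR adjusted p = 0.00827). Prkcq, the protein kinase C of the T cell synapse, had 1 peak called higher, peak 39 with 1.61 (SE 0.27, edgeR adjusted p = 0.00436), and 2 called lower, of which peak 5 changed by -1.82 (SE 0.38, edgeR adjusted p = 0.0106). The other leading peaks were Malt1 peak 6 (1.10), Ptprc peak 27 (1.45) and Cblb peak 22 (1.49) among the higher and Rasgrp1 peak 21 (-1.01) and Ptpn2 peak 2 (-1.11) among the lower. Leaving out KO TconvTreg replicate 1 brought the 18 calls to 1 and leaving out replicate 2 to 42. The split was 9 higher and 8 lower with loess offsets and 10 and 8 with DESeq2, and no call was left with only the groups compared. Pax5 stood at 7.13 to 9.39 CPM per kb in HP1γ KO TconvTreg and 4.47 to 5.49 in HP1γ KO Tconv. The sum of Foxp3 and Ikzf2 stood at 17.1 to 19.0 and 13.2 to 14.8, with Foxp3 itself lower (means 1.94 and 2.62). The sum of Itgam and Cd14 stood at 7.88 to 9.25 and 9.65 to 14.9. Klrk1 and Cd8b1 overlapped. The part of these markers was not tested. The effect of Treg was not called different between KO and WT at any of the 585 peaks in either line (interaction term in edgeR's quasi-likelihood test, 84 peaks at an unadjusted p under 0.05 in the HP1γ line and 59 in the HP1α line, with 8 and 4 called by DESeq2), beside 0% of all peaks in both.

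**Figure D3:**
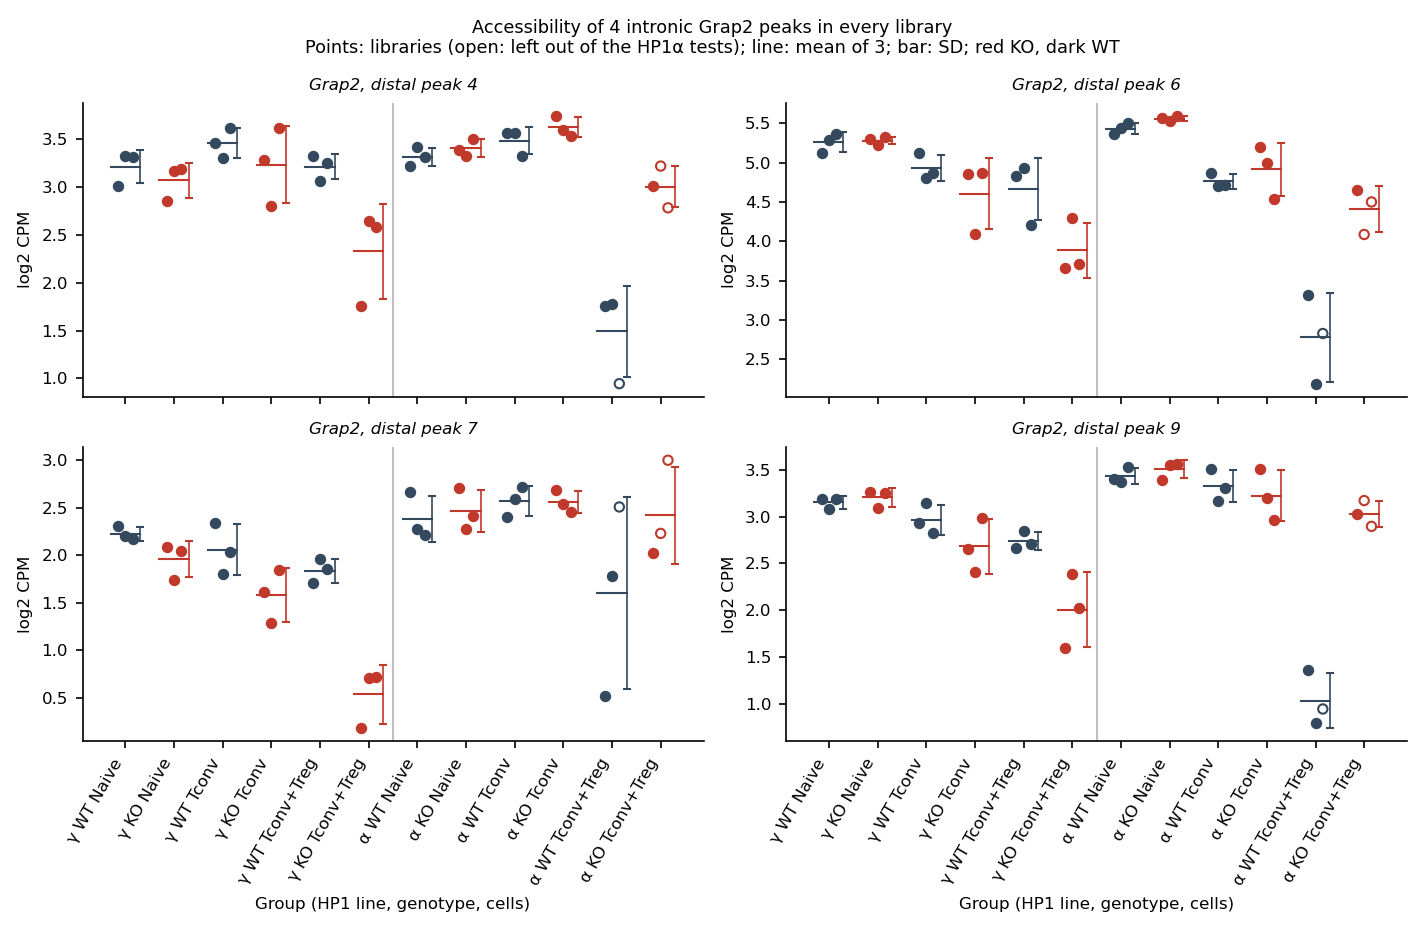
Accessibility of Grap2 distal peaks 4, 6, 7 and 9 in every library, in log2 CPM (vertical axis), by group (horizontal axis, HP1γ line on the left of the grey line and HP1α line on the right). Points are libraries, open where the tests left them out, lines are means of 3 libraries and bars 1 SD, with KO in red and WT in dark. At peaks 4, 6 and 9 the HP1α WT TconvTreg libraries lie below every other group of that line, and at all 4 peaks the HP1γ KO TconvTreg mean is the lowest of its line.

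The KO against WT comparisons ask what loss of the HP1 protein does to accessibility. HP1γ KO cells carry the Cd4-cre transgene and their WT controls no Cre, so HP1γ loss and the transgene cannot be told apart. In the HP1γ line the log2 fold changes of the start-site peaks lay between -0.34 and 0.28 in naive cells, between -0.40 and 0.14 in Tconv and between -0.46 and 0.47 in TconvTreg. In the HP1α line they lay between -0.16 and 0.30, between -0.66 and 0.38, and between -0.71 and 0.94 in the same order, the last with 20 of the 34 under 0.5 in size. No promoter peak was called in any KO against WT comparison of either line. In naive cells no peak of the 585 was called in the HP1γ line, beside 0.583% of all peaks (36 at an unadjusted p under 0.05 in edgeR, 5 called by DESeq2), and none in the HP1α line, beside 0.0014% (1 at an unadjusted p under 0.05 in edgeR, none called by DESeq2). In Tconv of the HP1α line no peak was called either, beside 0.0014% (21 at an unadjusted p under 0.05 in edgeR, none called by DESeq2).

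In Tconv of the HP1γ line, 5 of the 585 peaks were called, 0.855% beside 1.81% of all peaks, with 1.24% higher and 0.565% lower, each at another gene. Cblb peak 27 was higher in KO, at 1.73, 1.92 and 1.47 log2 CPM beside 0.73, 0.42 and 0.44 in WT (1.19, SE 0.22, edgeR adjusted p = 0.00773). Prkcq peak 18 (chr2:11161491-11161790) was higher by 1.77 (SE 0.38, edgeR adjusted p = 0.0194), with 0.39, -0.16 and -1.01 beside -1.30, -2.05 and -2.38. Ptprc peak 37, 518.095 kb from the start of Ptprc and close to the limit of detection, was higher by 2.45 (SE 0.64, edgeR adjusted p = 0.049). These 3 peaks had closed from naive cells to Tconv in HP1γ WT, with log2 fold changes of -3.70, -3.52 and -4.35, a comparison that shares the 3 WT Tconv libraries with this one and is not independent of it. Rasgrp1 peak 32 in an intron was lower in KO (1.99, 1.69 and 1.14 log2 CPM in WT, 0.73, 0.40 and 0.50 in KO, log2 fold change -1.12, edgeR adjusted p = 0.0194). Lcp2 peak 12 was lower as well (3.10, 3.33 and 2.62 in WT, 1.74, 2.08 and 1.78 in KO, log2 fold change -1.18, edgeR adjusted p = 0.0284). No call was left without WT replicate 2 or with only the groups compared. The calls were 2 higher and 4 lower with loess offsets and 3 and 5 with DESeq2. Klrk1 stood at 2.41 to 4.20 CPM per kb in KO and 7.43 to 14.2 in WT Tconv. Cd8b1 stood at 3.15 to 3.55 in KO and 1.70 to 2.86 in WT, and the sum of Foxp3 and Ikzf2 at 13.2 to 14.8 and 8.72 to 11.8. Pax5 and the sum of Itgam and Cd14 overlapped between the groups. The part of these markers in the result was not tested.

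With Treg, HP1γ KO cells differed from WT at 40 of the 585 peaks, 13 higher and 27 lower. That is 6.84% beside 10.7% of all peaks, with 4.8% higher and 5.92% lower genome-wide. All 40 were distal (7.38% of the distal peaks beside 12.5% of all distal peaks). The adaptors had 2 higher and 7 lower of 89, the kinases 5 and 7 of 139, the inhibitors 3 and 9 of 166, the effectors 1 and 4 of 107 and the surface molecules 2 and 0 of 84. Scaling by library size alone, which shifted the median of all peaks by -0.11, gave 10 higher and 36 lower. Markers of other cells also differed between these groups, in start-site CPM per kb. The NK gene Klrk1 (1 of 3 NK genes with a start-site peak) stood at 0.512 to 2.73 in KO and 3.31 to 16.1 in WT, Pax5 (1 of 4 B cell genes) at 7.13 to 9.39 and 3.48 to 7.14, the sum of Itgam and Cd14 (2 of 4 myeloid genes) at 7.88 to 9.25 and 9.26 to 12.7, and the sum of the Treg genes Foxp3 and Ikzf2 at 17.1 to 19.0 and 8.80 to 14.5. Within that sum, Ikzf2 had the higher mean in KO (15.9 and 9.16 in WT), and Foxp3, the defining gene of Treg, the lower one (1.94 and 2.31). Their part in the result was not tested. The count went from 15 without KO TconvTreg replicate 1 to 64 without WT TconvTreg replicate 1, and it was 18 without WT TconvTreg replicate 2.

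The peaks given to Prkcq by the nearest-start rule changed in both directions. Its peak 39 in an intron (chr2:11272901-11274070, 41.807 kb downstream of the nearest start) stood at 0.62, 0.72 and 1.22 log2 CPM in HP1γ WT TconvTreg and at 2.80, 1.91 and 2.66 in KO, without overlap (1.66, SE 0.28, edgeR adjusted p = 0.00162). The naive libraries were lower, at -0.66, -0.77 and -0.43 in WT and 0.22, -0.28 and -0.32 in KO, and the KO difference was not called there (0.52, edgeR adjusted p = 0.578) or in Tconv (0.98, edgeR adjusted p = 0.0752). Peak 5, 125.638 kb upstream (chr2:11050931-11051630), lay outside Prkcq, in an intron of another annotated gene. It stood at 1.22, 2.40 and 1.25 in WT TconvTreg and at -1.70, 0.06 and -0.70 in KO (-2.42, SE 0.38, edgeR adjusted p = 0.00123). Whether the KO difference at these 2 peaks changed with Treg was not settled, with interaction terms of 0.69 (edgeR adjusted p = 0.425) and -1.38 (edgeR adjusted p = 0.263). Peaks 23 (1.22, SE 0.22) and 12 (1.34, SE 0.28) of Prkcq, both upstream of the start and intergenic, were also among the 4 smallest p-values of the higher peaks, with peak 17 of Fyn (1.01, SE 0.21).

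Grap2 was lower in HP1γ KO than in WT TconvTreg. Of its 22 peaks, 4 were called lower and none higher, 20 had a log2 fold change below 0 and the median was -0.65. Peak 7 (chr15:80497141-80498070) stood at 1.70, 1.96 and 1.85 log2 CPM in WT and at 0.18, 0.71 and 0.72 in KO, without overlap (-1.31, SE 0.21, edgeR adjusted p = 0.00139). Peaks 5, 11 and 22 were the others called, with -1.37, -1.37 and -1.02. Peaks 4, 6 and 9 passed the p threshold without reaching the fold limit, at -0.84, -0.78 and -0.70 (edgeR adjusted p = 0.0176, 0.0172 and 0.0202). The other leading losses were Csk peak 1 (1.30, 0.95 and 1.80 in WT, 0.16, 0.03 and 0.22 in KO, -1.26, SE 0.22, edgeR adjusted p = 0.00186) and Cblb peak 50 (-1.14, SE 0.21, edgeR adjusted p = 0.00243). Csk peak 1 lies 13.582 kb upstream of the gene of the kinase that switches Lck off. Rasgrp1, the exchange factor that couples diacylglycerol to Ras, had 4 peaks lower and 1 higher of 38.

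**Figure D4:**
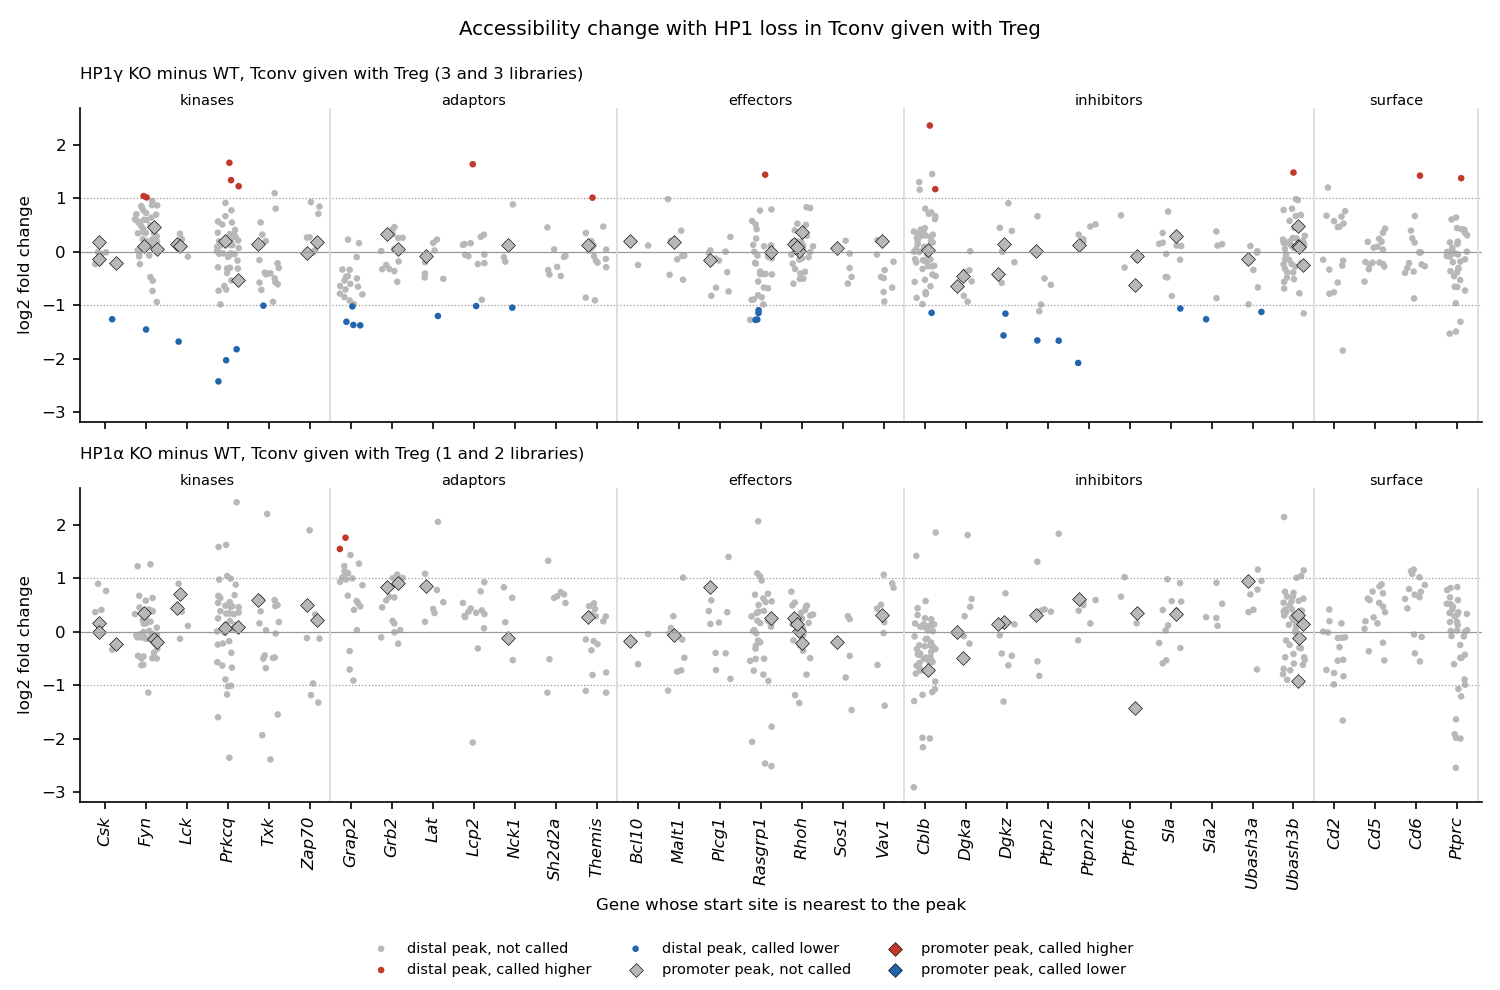
Log2 fold change of KO against WT in TconvTreg (vertical axis) of the 585 peaks by gene, for the HP1γ line (top, 3 and 3 libraries) and the HP1α line (bottom, 1 KO and 2 WT libraries). Dots are distal peaks and diamonds promoter peaks, red when called higher and blue when called lower, dotted lines stand at -1 and 1, and the sideways spread is arbitrary. Grap2 has 4 blue points and a column mostly below 0 in the HP1γ line, and the 2 red points of the HP1α line are both in the Grap2 column.

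In the HP1α line the 2 peaks of the 585 called in TconvTreg were both Grap2's and both higher in KO, beside 0.14% of all peaks, with 0.105% higher and 0.035% lower. Peak 6 stood at 4.66 log2 CPM in the KO library tested and at 3.32 and 2.19 in WT (1.55, SE 0.28, edgeR adjusted p = 0.048), and peak 9 at 3.03 beside 1.36 and 0.80 (1.76, SE 0.34, edgeR adjusted p = 0.04997), where the spread of the lone KO library was taken from the other groups. The KO libraries left out, at 4.09 and 4.50 and at 3.17 and 2.90, were also above all 3 WT libraries. Over the 22 Grap2 peaks 19 were above 0, with a median of 0.95 beside -0.10 over all peaks. Both calls stand at the threshold. The count over the 585 was 0 without WT TconvTreg replicate 2 and 29 without replicate 1, and DESeq2 called 18. Without replicate 2, the library of 1486053 reads, both adjusted p were 0.0766 in edgeR, and with log2 depth as a covariate both were 0.207. With all 18 HP1α libraries peak 6 was at 0.0591 and peak 9 at 0.0359. These 2 calls and the 12 Grap2 peaks lower in WT TconvTreg than in Tconv rest on the same 2 WT TconvTreg libraries and are not independent of each other. Pax5 stood at 5.27 to 13.1 CPM per kb in the KO TconvTreg libraries and at 13.1 to 16.4 in the WT ones, and the sum of the T cell genes Cd3e, Cd3g, Thy1 and Cd28 at 36.1 to 60.9 and 26.2 to 39.9. The part of these differences in the result was not tested. The KO difference in TconvTreg was itself tested between the lines: it differed at 74 of the 585 peaks, 12.6% beside 14% of all peaks, and at 12 of the 22 Grap2 peaks, all with the larger value in the HP1α line. With only the groups compared the 74 became 24 and with the edgeR 4 method 47. The effect of Treg in WT cells differed between the lines at 5 of the 585, beside 0.519% of all peaks, 3 of them Grap2's. That count was 0 with only the groups compared or the edgeR 4 method and 1 to 21 with any 1 library left out. The change from naive cells to Tconv differed at none (edgeR, DESeq2 called 1), beside 0.0042%, and at 35 without HP1α WT Tconv replicate 1.

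**Figure D5:**
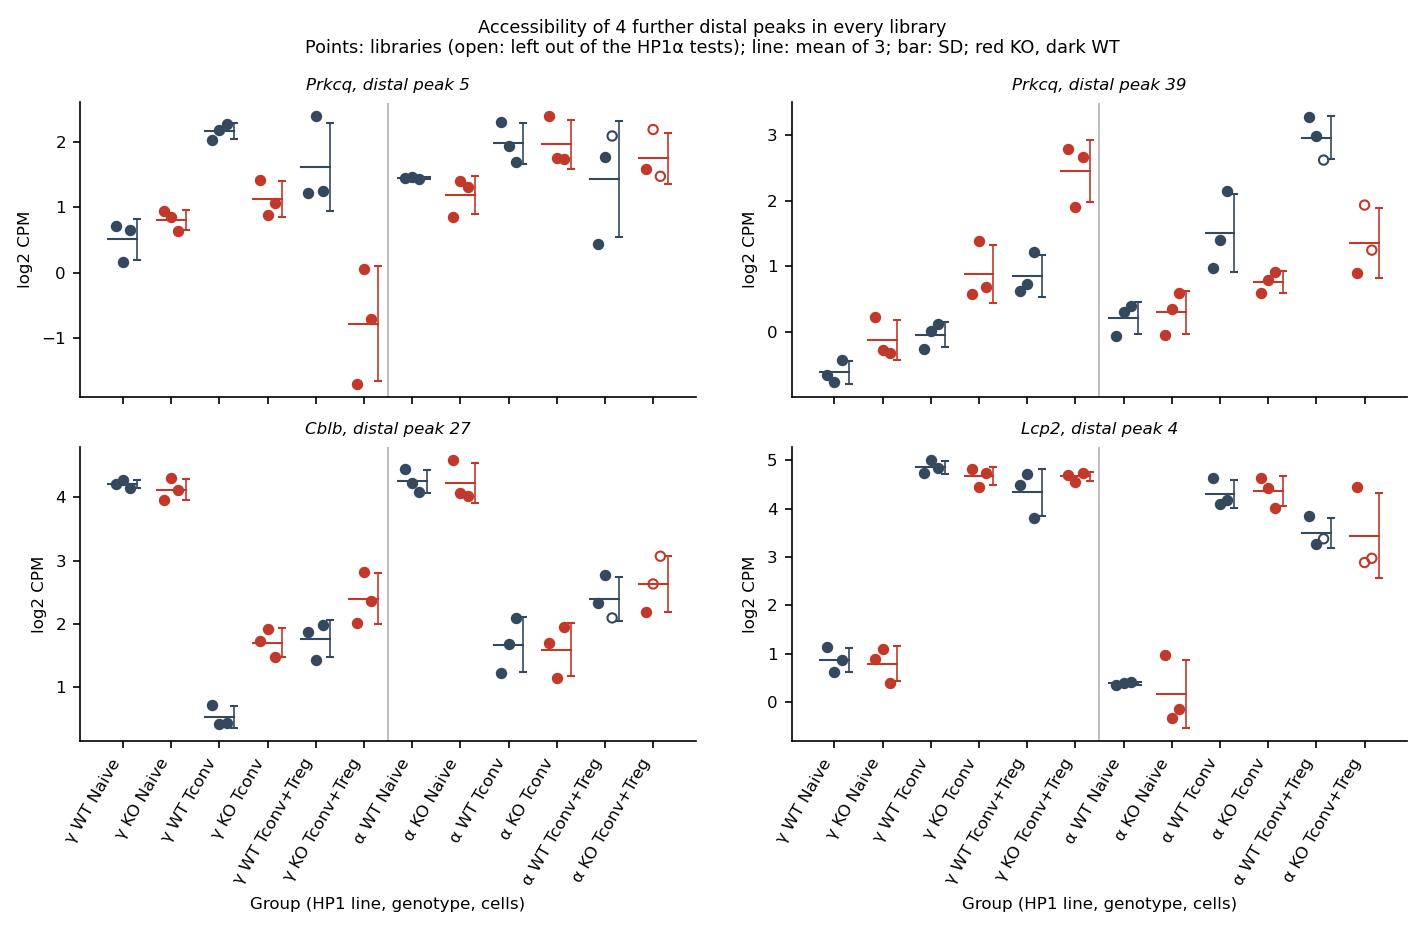
Accessibility of Prkcq distal peaks 5 and 39, Cblb distal peak 27 and Lcp2 distal peak 4 in every library, in log2 CPM (vertical axis), by group (horizontal axis, HP1γ line left of the grey line, HP1α line right). Points are libraries, open where the tests left them out, lines are means of 3 libraries and bars 1 SD, with KO in red and WT in dark. At Lcp2 peak 4 the lowest Tconv or TconvTreg library is at 2.88 and the highest naive one at 1.13, at Cblb peak 27 the lowest naive library is at 3.96 and the highest other one at 3.07, and Prkcq peak 39 has its highest means in HP1γ KO and HP1α WT TconvTreg.

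A set of 20 other genes of the same pathway, among them Cbl, Map4k1, Fyb1, Stim1 and Orai1, is set beside the 34. Of its 275 peaks, 52 were called higher and 53 lower from naive cells to Tconv in HP1γ WT, 38.2% beside the 44.3% of the 34 genes and 47.1% of all peaks. In HP1α WT 51 were higher and 27 lower, 28.4% beside 36.8% and 39.1%. In HP1γ KO against WT TconvTreg, 5 were higher and 23 lower, 10.2% beside the 6.84% of the 34 genes and the 10.7% of all peaks. In HP1α WT TconvTreg against Tconv, 7 were higher and 16 lower, 8.36% beside 9.23% and 7.5%, and in HP1α KO against WT TconvTreg none was called.

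Over all 18 comparisons within a line, which share libraries, Bcl10, the link between the kinase Prkcq and NF-κB, had no called peak among its 3.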

How the data were processed

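ATAC-seq was performed on 36 libraries of mouse CD4 T cells in 12 groups of 3. Per the labels and the study's methods, the authors trimmed reads with Trim Galore 0.6.7, aligned them to GRCm39 with BWA-MEM 2, removed low-quality, duplicate and blacklisted reads, called peaks with HMMRATAC in each sample, merged the peaks over all samples and counted reads per merged peak with featureCounts 2.0.3. The deposited table holds these raw counts. A merged peak is wide and can hold several sites, and a read shared by neighbours can shift a count.

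Peaks were placed on GENCODE vM39, and zero-width intervals were dropped. The 34 genes, the 20 other pathway genes and the marker lists were chosen with earlier results of these data known. Counts were tested with edgeR 4.0.16 (R 4.3.3, limma 3.58.1) in 1 model per line with a mean for each group, TMM scaling, filterByExpr (71508 peaks kept in the HP1γ line, 71509 in the HP1α line) and the quasi-likelihood method of edgeR 3. The choice between that method and the one of edgeR 4 was made after both had been seen. On counts simulated for KO against WT in TconvTreg with 200 peaks changed by 2 on the log2 scale, the edgeR 3 method recovered 83.0% with 9 false calls in the HP1γ line and 32.0% with 2 in the HP1α line, and the edgeR 4 method 83.5% with 30 and 29.5% with 53. Calls needed an adjusted p below 0.05 and a change beyond 1 on the log2 scale. A prior count of 2 entered the log2 CPM values, so that low levels are drawn together. Reads in peaks ranged from 1486053 to 96806542 a library. Where 0 reads were counted, up to 3 would be compatible, and counting error is all that this covers. The HP1α model held 15 of 18 libraries, as in the study. DESeq2 1.42.0 was an alternative. No other column of per-sample values was present.

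The labels do not say what a replicate number stands for. Same-numbered libraries deviated together over all peaks, with every correlation over 0.1, for HP1α KO against WT in naive cells (0.33 to 0.59), HP1γ KO against WT in TconvTreg (0.15 to 0.38) and HP1γ WT TconvTreg against Tconv (0.21 to 0.30). The tests name no block, and the blocked count is given where it moves the result.

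Named peaks were the 4 with the smallest p called in each direction of a comparison, every called peak where 5 or fewer were called, and the start-site peaks called or among the 4 largest changes. The peak-by-peak account of Grap2, the start peaks beyond 1 kb and the printed sequences were chosen after values were seen. The columns used were counts only.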

Additional observations from a re-analysis of the deposited data

Results flagged for a closer look

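The 2 lines were compared in 1 model over the libraries of both, which tests the HP1α line's effect minus the HP1γ line's. The KO against WT difference in TconvTreg differed between the lines at 74 of the 585 peaks, 55 with the larger value in the HP1α line and 19 in the HP1γ line, 12.6% beside 14% of all peaks. The count was 24 with only the groups compared, 47 with the edgeR 4 method and 52 to 85 with 1 library left out. The adaptors had 19 and 2 of 89, and Grap2 12 and 0 of 22. Grap2 peak 9 differed by 2.55 (edgeR adjusted p = 0.000182), Prkcq peak 39 by -3.94 (edgeR adjusted p = 0.000208), Grap2 peak 6 by 2.41 (edgeR adjusted p = 0.000268) and peak 8 of Lat, the membrane adaptor that Zap70 phosphorylates, by 3.34 on the log2 scale (edgeR adjusted p = 0.000501). The WT TconvTreg libraries were themselves apart between the lines at these peaks: Prkcq peak 39 stood at 3.28, 2.99 and 2.62 log2 CPM in HP1α WT TconvTreg and at 0.62, 0.72 and 1.22 in HP1γ WT TconvTreg. Replicate 3 of HP1α WT TconvTreg was not in the fit. The lines differ in the HP1 gene, in the Cre transgene, in depth and, by the paper's account, in how far Treg repressed the WT response. These cannot be told apart.

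The effect of Treg in WT cells differed between the lines at 5 of the 585 peaks, 0.855% beside 0.519% of all peaks: Grap2 peak 9 by -1.96 (edgeR adjusted p = 0.013), Grap2 peak 4 by -1.59 (edgeR adjusted p = 0.0354), Grap2 peak 6 by -1.53 (edgeR adjusted p = 0.0358), Ubash3b peak 12 by 1.92 (edgeR adjusted p = 0.0358) and Lat peak 3 by -1.24. The count was 0 with only the groups compared or the edgeR 4 method, and it moved by over 1.5 times whichever library was left out, from 1 to 21, the latter without HP1α WT TconvTreg replicate 1. These rest on the same HP1α WT TconvTreg libraries as above, and the part of their depth and marker levels was not tested. The change from naive cells to Tconv in WT differed at none of the 585 (edgeR, DESeq2 called 1), beside 0.0042% of all peaks, and at 35 without HP1α WT Tconv replicate 1.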

How the results depend on the processing

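The counts of calls from naive cells to Tconv stayed within 1.5 times under every alternative except the assignment by start sites of any gene type, which leaves 297 peaks and gave 131 (HP1γ WT), 118 (HP1γ KO), 108 (HP1α WT) and 96 (HP1α KO). The same assignment gave 2 calls for HP1γ KO against WT in Tconv, 19 in TconvTreg, 0 and 7 for HP1γ TconvTreg against Tconv in WT and KO, and 1 and 21 for HP1α KO against WT in TconvTreg and HP1α WT TconvTreg against Tconv. Fits on only the groups compared gave 1, 0 and 15 for HP1γ KO against WT in naive cells, Tconv and TconvTreg, 0 and 0 for HP1γ TconvTreg against Tconv in WT and KO, 1 for the HP1γ interaction of KO and activation, and 0 and 27 for HP1α KO against WT in TconvTreg and HP1α WT TconvTreg against Tconv. DESeq2 gave 5 and 8 for HP1γ KO against WT in naive cells and Tconv, 10 for HP1γ WT TconvTreg against Tconv, 8 and 2 for the HP1γ interactions with Treg and activation, 18 for HP1α KO against WT in TconvTreg, 3 for HP1α KO TconvTreg against Tconv and 4 for the HP1α interaction with Treg. The edgeR 4 method gave 1 and 10 for HP1γ KO against WT in naive cells and Tconv, 0 for HP1γ WT TconvTreg against Tconv, 4 for HP1α KO against WT in TconvTreg and 6 for HP1α KO TconvTreg against Tconv. HP1α KO against WT in TconvTreg had 4 calls with library size alone, 5 with loess offsets, 0 with log2 depth as a covariate and 1 with all HP1α libraries. HP1γ WT TconvTreg against Tconv had 10 with library size alone, 0 with log2 depth, 7 with the replicate block and 0 with block and depth, and HP1α WT TconvTreg against Tconv had 0 with block and depth. With all 18 HP1α libraries, the block moved KO against WT in TconvTreg from 1 call to 8 and KO TconvTreg against Tconv from 0 to 6, and it moved no other count by over 1.5 times. The HP1α comparisons of KO TconvTreg, with 1 library tested, could be blocked only that way.

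The difference between lines had 24 calls for KO against WT in TconvTreg with only the groups compared and 47 with the edgeR 4 method, and for TconvTreg against Tconv in WT 0 with either, 1 with all HP1α libraries, 14 with DESeq2 or library size alone, 16 with loess offsets and 18 with log2 depth, and 1 to 21 leaving out 1 library. For Tconv against naive cells in WT it had 35 calls without HP1α WT Tconv replicate 1 and 0 without any other. Library size alone shifted the median of all peaks by -0.11 (HP1γ KO against WT in TconvTreg), 0.15 (HP1γ WT TconvTreg against Tconv), 0.25 and 0.17 (HP1α WT and KO Tconv against naive). The split of higher and lower calls moved for HP1γ KO against WT in Tconv (2 and 4 with loess offsets), for HP1γ KO TconvTreg against Tconv (9 and 8 with loess offsets, 10 and 8 with DESeq2) and for HP1α KO Tconv against naive (130 and 67 with library size alone).

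Leaving out 1 library at a time gave 0 to 4 calls for HP1γ KO against WT in naive cells, 0 to 7 in Tconv and 15 to 64 in TconvTreg, 223 to 249 and 252 to 263 from naive cells to Tconv in HP1γ KO and WT, 1 to 42 and 0 to 6 for HP1γ TconvTreg against Tconv in KO and WT, 0 to 29 for HP1α KO against WT in TconvTreg, 177 to 209 and 195 to 210 from naive cells to Tconv in HP1α KO and WT, and 32 to 63 for HP1α WT TconvTreg against Tconv. The KO TconvTreg library of the HP1α line cannot be left out, and with all 18 libraries the range was 0 to 6. No named peak changed direction under any alternative. Peaks with few reads in the shallow HP1α TconvTreg libraries limit what can be called there.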

Other observations

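Short motifs were counted in the central 300 bases of the peaks that moved from naive cells to Tconv in WT cells of both lines. The AP-1 motif TGANTCA was found in 23.5% of the 115 peaks of the 34 genes called higher in both lines and in 10.3% of the 68 called lower, beside 23.0% of the 15957 and 8.67% of the 8825 such peaks genome-wide and 13.0% of all peaks. The TCF/LEF motif CTTTGAA was found in 4.35% and 23.5%, beside 7.04% and 14.2%, and 7.93% of all peaks. The RUNX motif TGTGGT was found in 39.1% and 29.4%, beside 39.8% and 30.9%. The promoter peaks of the 34 genes held the GC box GGGCGG in 34.9% and the ETS motif CCGGAAG in 2.33%, beside 51.7% and 11.1% of all promoter peaks. These are shares without a test.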
